A study of Mus musculus with 6 samples.

Results

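The collagen genes were taken as the GRCm38 protein-coding genes whose symbol is Col, a number, the letter a and a number, which gave 44 of 21887 protein-coding genes. They were divided by the type of assembly their chains form into 11 fibrillar genes, 9 network genes, 9 genes of the fibril-associated collagens with interrupted triple helices (FACIT) and 15 others. ATAC-seq, in which a transposase inserts adapters into open DNA, had been run on fibroblasts of E13.5 mouse embryos. The wild-type group (3 libraries) was Acvr1+/+ and the FOP mutant group (3 libraries) was Acvr1R206H/+, that is, heterozygous for R206H in Acvr1, a type I receptor for bone morphogenetic proteins (BMPs). This receptor variant underlies fibrodysplasia ossificans progressiva (FOP), in which bone forms in soft tissues. Both groups were grown in DMEM with fetal bovine serum, and no other allele, agent or time point is named in the labels. The authors' 2 lists of differential regions were used, 2965 regions more accessible and 556 less accessible in mutant than in wild-type cells. They hold positions and no value per library, so the depth of the libraries is unknown, the spread between replicates could not be measured, and no test was run. Markers of the fibroblast label could not be checked either, as no level is measured by a list of positions.

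Collagens are secreted proteins whose chains wind into a triple helix, in which glycine recurs at a fixed interval. Fibrillar collagens such as types I, III and V form the banded fibrils of skin, tendon and bone, network collagens such as type IV form the sheets of basement membranes, and FACIT collagens sit on the surface of fibrils. Fibroblasts are a main source of collagen, and type I collagen is the principal protein of bone matrix. Regions of open chromatin away from promoters are often enhancers, but a region near a gene need not act on it.

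More accessible regions were linked to 11 of the 44 collagen genes (25.0%, exact 95% interval 13.2 to 40.3%), against 7.27% of all protein-coding genes. The members and classes were chosen with earlier results of these data known, so their shares and rates are a description only. A region was linked to the gene whose span held its midpoint or, outside all spans, to the nearest span within 100 kb. There were 16 such regions. Col8a1, a network collagen of vessel walls and the cornea, and Col14a1, a FACIT collagen of skin and tendon, had 3 each. A count of 3 or more was reached by 0.722% of all protein-coding genes, whose median span was 17.2 kb. Col8a1 spans 130.5 kb and Col14a1 213.2 kb, and no such share was computed for genes of like length. Col12a1, a FACIT collagen of tendon and other load-bearing tissue, had 2, and Col5a1, Col5a2, Col24a1, Col27a1, Col4a4, Col4a6, Col19a1 and Col13a1 had 1 each. Less accessible regions were linked to Col5a1 and Col23a1, with 1 each (4.55% of the 44 genes, 0.555 to 15.5%), against 1.99% of all protein-coding genes. Col5a1 was the 1 collagen gene with regions of both directions, as were 80 protein-coding genes in all. With links limited to 10 kb, 7 collagen genes (15.9%) had a more accessible region, against 5.03% of all protein-coding genes.

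**Figure D1:**
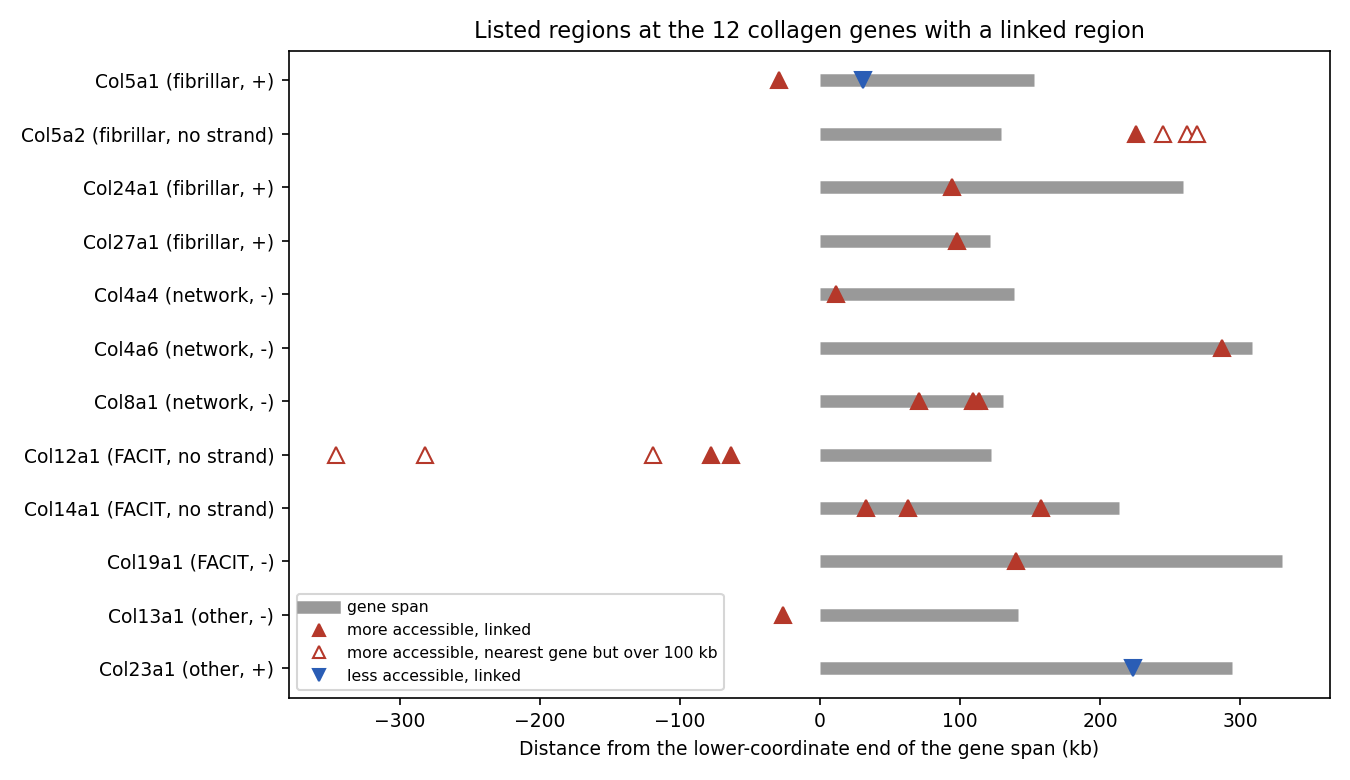
Listed regions at the 12 collagen genes with a linked region. Each row is a gene, the grey bar its span in kb from its lower-coordinate end, and the sign the strand where it was available; filled red triangles are linked more accessible regions, open red triangles those for which the collagen gene was nearest but over 100 kb away, and blue triangles less accessible regions. The 3 regions of Col8a1 and of Col14a1 lie inside the genes, while those of Col12a1 and Col5a2 all lie outside.

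Collagen genes are long, and the share of genes with a more accessible region followed gene length. The median span was 114 kb for the collagen genes and 17.2 kb for all protein-coding genes. The 11 collagen genes with a more accessible region spanned 121 to 330 kb. None of the 18 collagen genes under 100 kb had one, where the share over all genes of that size was 4.22%. Of the 26 collagen genes of 100 kb or more, 11 (42.3%) had one, against 31.7% of all 2429 genes of that size. Between 100 and 200 kb the shares were 38.9% (7 of 18) and 23.8%, and at 200 kb or more 50% (4 of 8) and 43.1%. The gap of 25.0% to 7.27% over genes of every length was therefore narrower among long genes. For less accessible regions the shares were 7.69% (2 of 26) against 6.38% at 100 kb or more, with 5.56% against 5.28% between 100 and 200 kb and 12.5% against 7.98% above, each collagen share resting on 1 gene in the narrower bins. Under 100 kb they were 0 of 18 collagen genes against 1.44%.

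**Figure D2:**
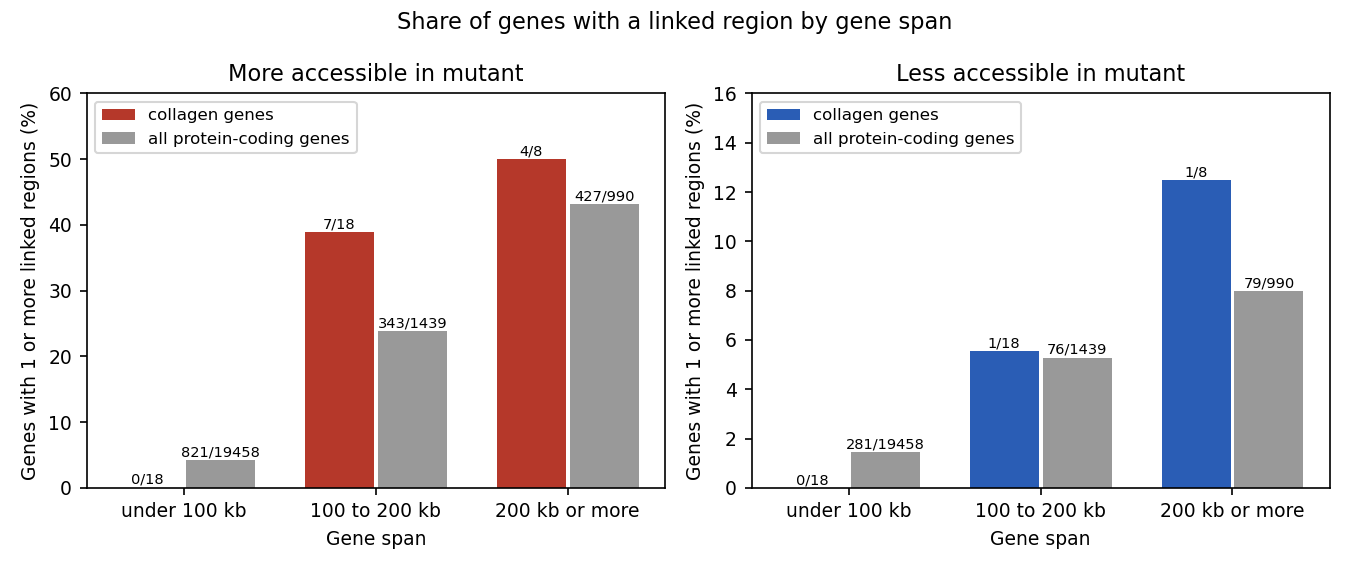
Share of genes with 1 or more linked regions (%) by gene span, for more accessible (left) and less accessible regions (right); coloured bars are collagen genes, grey bars all protein-coding genes, and the counts stand above the bars. The share rises with span in both sets, and among genes of 200 kb or more the collagen share of more accessible regions is 50% against 43.1%.

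Regions were also counted per length of sequence. The territory of a gene, the stretch of positions that would be linked to it, summed to 7.61 Mb over the collagen genes. The rate was 2.10 more accessible regions per Mb of territory (exact Poisson 95% interval 1.20 to 3.41), against 1.19 (1.14 to 1.24) over all protein-coding genes. Among genes of 100 kb or more it was 2.53 (1.45 to 4.11) against 1.62 (1.53 to 1.71), so the value for long genes in general lay within the collagen interval. For less accessible regions the rates were 0.263 per Mb (0.0318 to 0.949) and 0.245 (0.224 to 0.268). These intervals cover counting error only and do not allow for the choice of the gene set. Neighbouring regions are not independent, which such intervals do not allow for.

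The classes differed in their counts, but on few regions. FACIT genes had 3.69 more accessible regions per Mb of territory (6 regions at 3 of 9 genes, 95% interval 1.36 to 8.04) and network genes 3.47 (5 regions at 3 of 9 genes, 1.13 to 8.10). Fibrillar genes had 2.13 (4 regions at 4 of 11 genes, 0.579 to 5.44) and the other classes together 0.375 (1 region at 1 of 15 genes, 0.0095 to 2.09). All 4 intervals overlap, and the difference between classes was not tested. The median span was 45.1 kb for fibrillar, 75.2 kb for FACIT, 135 kb for network and 106.5 kb for the other genes, and the part of gene length in these rates was not tested. All 5 regions of the network genes lay inside a gene, as did 4 of the 6 of the FACIT genes and 2 of the 4 of the fibrillar genes.

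**Figure D3:**
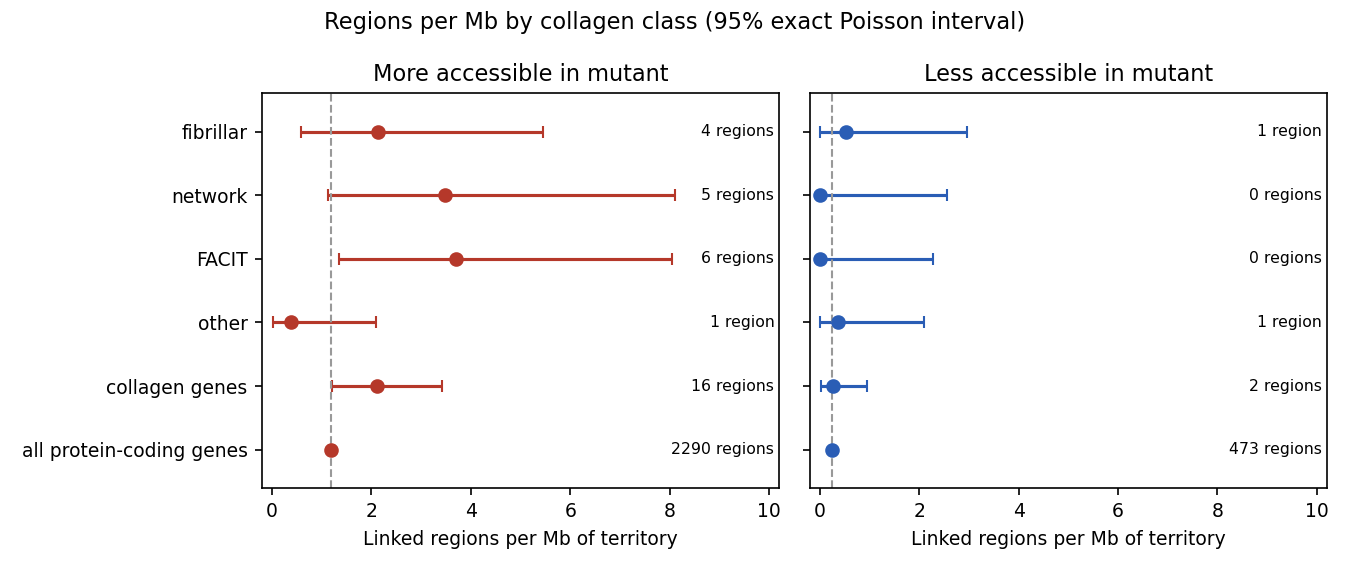
Linked regions per Mb of territory for each collagen class, all collagen genes and all protein-coding genes; points are rates, bars exact Poisson 95% intervals for counting error, and the dashed line the rate over all protein-coding genes (1.19 per Mb for more, 0.245 per Mb for less accessible regions). FACIT and network genes have the highest rates of more accessible regions and the other classes the lowest, with overlapping intervals.

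No listed region of either direction overlapped a collagen promoter among the 35 genes with a matched window. Promoter windows, 250 bases before to 50 after an annotated start, were found in RefSeq (GRCm38.p6) for 35 of the 44 genes, 38 windows in all, and 0 were overlapped. Over all 21263 windows of protein-coding genes 5 (0.0235%) were overlapped by a more and 4 (0.0188%) by a less accessible region. With shares so low, 0 of 38 does not set the collagen genes apart. Col5a2, Col12a1 and Col14a1, which had linked regions, were among the genes without a window. The linked collagen genes whose annotated start lay nearest to a linked more accessible region were Col8a1 (16.8 kb), Col4a6 (21.3 kb) and Col5a1 (29.3 kb). The 250 bases before their starts are shown, since among the linked genes with a matched start these promoters were closest to a linked more accessible region. They lie at chr16:57754738-57754987 (minus strand), chrX:141474077-141474326 (minus strand) and chr2:27886175-27886424 (plus strand) of GRCm38.p6, and each is written 5′ to 3′ in the direction of transcription. Capitals mark matches on either strand to GGCGCC, bound by BMP-activated SMAD factors, or CAGACA, which holds the core SMAD site.
Col8a1: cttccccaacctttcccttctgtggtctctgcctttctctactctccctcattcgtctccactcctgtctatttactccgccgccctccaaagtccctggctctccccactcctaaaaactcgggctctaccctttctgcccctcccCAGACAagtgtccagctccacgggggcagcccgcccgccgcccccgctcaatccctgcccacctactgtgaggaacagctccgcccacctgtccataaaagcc
Col4a6: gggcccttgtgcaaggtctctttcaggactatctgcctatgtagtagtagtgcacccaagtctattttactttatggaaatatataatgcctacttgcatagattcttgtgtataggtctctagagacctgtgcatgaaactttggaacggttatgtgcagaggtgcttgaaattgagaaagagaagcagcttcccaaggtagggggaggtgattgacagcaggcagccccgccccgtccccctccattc
Col5a1: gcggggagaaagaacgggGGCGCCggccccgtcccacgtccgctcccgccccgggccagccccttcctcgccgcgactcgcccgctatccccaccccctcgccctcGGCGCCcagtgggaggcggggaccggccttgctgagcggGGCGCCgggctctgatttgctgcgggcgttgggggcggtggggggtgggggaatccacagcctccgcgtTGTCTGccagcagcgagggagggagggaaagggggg

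The Col5a1 window held GGCGCC 3 times and CAGACA once, on the opposite strand. The Col8a1 window held CAGACA once, and the Col4a6 window held neither. These short words are common: among all windows GGCGCC was found in 12.3% and CAGACA in 15.2%, and among the 38 collagen windows in 10.5% and 23.7%. TGANTCA, the AP-1 site, was found in 1 collagen window, that of Col6a1, and in 6.13% of all windows. GGAATG, the site of the TEAD factors that act with YAP and TAZ, was found in 10.5% of collagen and 11.7% of all windows. The promoter elements CCAAT (34.2% and 35.4%) and TATAAA (13.2% and 11.6%) were also at similar shares. All motifs were searched on both strands, and none of the printed matches overlaps another. The Col5a1 window, with 76.4% G and C, was the richest of the collagen windows, and the Col4a6 window had 47.6%. With the first window of each gene, the median was 60.2% for the 8 matched collagen genes with a more accessible region, 58.8% for the 27 without and 55.2% for all protein-coding genes.

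Of the fibrillar genes, Col5a1 had a region of each direction, with its annotated start between them. Its product is a chain of type V collagen, which starts fibrils and sets their width. The more accessible region (chr2:27857021-27857220, 200 bp, the shortest width in the list) lay 29.3 kb upstream of the annotated start, between Rxra (93.8 kb away) and Col5a1. The less accessible region (chr2:27917187-27917565, 379 bp) lay inside the gene, 31.0 kb downstream of the start. The 2 regions thus flanked the start at like distances, with opposite directions. Col5a2, which encodes another chain of type V collagen, had 1 linked region at chr1:45599874-45600531, 96.9 kb outside the gene and just within the 100 kb limit. A further 3 more accessible regions followed it at 115.8, 132.9 and 140.3 kb, all nearer to Col5a2 than to the next gene, Wdr75, and spaced 7.40 to 18.9 kb apart. The 4 regions formed a string in an interval without protein-coding genes, of which the rule links only the first. That first region lay 1.825 kb from the pseudogene Gm8304, nearer than to Col5a2.

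Col24a1 and Col27a1, which encode fibrillar collagens of developing bone and cartilage, had 1 region inside each gene. In Col24a1 it lay at chr3:145386046-145386806, 94.0 kb downstream of the start and 36.2% of the way along the gene. In Col27a1 it lay at chr4:63311439-63311987, 96.3 kb downstream of the nearest annotated start and 80.8% of the way along the span. The genes of the major fibril collagens had no linked region of either direction. These are Col1a1 and Col1a2, the chains of type I collagen, Col3a1, the chain of type III collagen that accompanies it in soft tissue, and Col2a1, the chain of the main cartilage collagen. They are short genes, with spans of 16.8, 35.9, 38.2 and 29.1 kb. Of all protein-coding genes under 50 kb, only 3.16% had a more and 1.22% a less accessible region. The nearest more accessible region lay 53.8 kb from Col1a1, where it was nearer to Gm11544 (32.9 kb), and 1261 kb from Col1a2. It lay 250.5 kb from Col3a1, beyond the neighbouring Col5a2, and 864 kb from Col2a1. Col5a3, Col11a1 and Col11a2 also had none, with the nearest more accessible region at 153, 1344 and 2073 kb.

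Among the network genes, Col8a1 (chr16:57624256-57754737) had its 3 more accessible regions within the first 45.9% of the gene. They lay at chr16:57737695-57738255, chr16:57733206-57733567 and chr16:57694605-57695098, which is 16.8, 21.4 and 59.9 kb downstream of the start. The midpoints of the first pair were 4.59 kb apart. Col8a1 was the 1 collagen gene with linked regions within 10 kb of each other, so that it counts 2 regions when such neighbours are merged.

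The type IV collagen genes lie in head-to-head pairs, and more accessible regions were linked to 1 member in each of 2 pairs. In Col4a6 the region (chrX:141452362-141453162, 801 bp, the widest of the 16) lay 21.3 kb downstream of the start. Its partner Col4a5, whose span begins 1.27 kb away, was 22.6 kb from the same region, so the link to Col4a6 rests on the region lying inside that gene. In Col4a4 the region (chr1:82459410-82459811) lay 127 kb from the start and 91.9% of the way along the gene. It was 11.2 kb from the far end of Col4a4, the smallest distance to an end of the linked gene among the 16. Col4a3, whose span overlaps that of Col4a4 at their starts, had no linked region. Col4a1 and Col4a2, which encode the chains found in nearly all basement membranes, had none, and the nearest more accessible regions lay 1172 and 1287 kb away. Col10a1, the collagen of hypertrophic cartilage, had none within 2627 kb, and Col8a2, the partner of Col8a1, none within 182 kb.

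Among the FACIT genes, Col14a1 (chr15:55307644-55520803) had its 3 more accessible regions inside the gene, at chr15:55339973-55340658, chr15:55369842-55370577 and chr15:55464958-55465535. The first pair was 29.9 kb apart and the third lay 95 kb further on. Another more accessible region lay 40.0 kb outside Col14a1 and was nearer to Deptor, an inhibitor of mTOR signalling, at 8.41 kb. Col12a1 had no region inside its span. Its 2 linked regions, at chr9:79520734-79521080 and chr9:79534899-79535611, lay 78.1 and 63.7 kb outside it and 14.3 kb apart. A further 3, at 119.6, 281.8 and 345.5 kb, were also nearer to Col12a1 than to Cd109, the next gene on that side. The interval holds the non-coding gene Gm10635 and the pseudogene Timm29-ps1, and the region at 119.6 kb lay inside Gm10635. The linked regions at 78.1 and 63.7 kb lay 1.605 and 15.95 kb from Gm10635, nearer than to Col12a1. Col12a1 and Col5a2 thus each stood beside a stretch free of protein-coding genes with several more accessible regions, 5 and 4 in all when no distance limit was set. The share of all protein-coding genes that reach such counts with no limit was not computed, so the pattern cannot be called particular to these genes.

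Col19a1, a FACIT gene of 330 kb, had 1 more accessible region (chr1:24397183-24397441), 190 kb downstream of its start and 139.6 kb from the nearer end. The other FACIT genes had no linked region. Of the chains of cartilage type IX collagen, Col9a1 was 145 kb, Col9a3 929 kb and Col9a2 964 kb from the nearest more accessible region. The corresponding distances were 370 kb for Col16a1, 1314 kb for Col20a1 and 4037 kb for Col22a1. Col22a1 spans 355 kb and was thus a long gene with the farthest distance of the 44. A less accessible region lay 46.9 kb from Col16a1, inside Adgrb2.

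The other classes had 1 region of each direction, both at genes of transmembrane collagens. The more accessible region of Col13a1, a collagen of cell adhesion sites and the neuromuscular junction, lay at chr10:61811676-61812415, 26.2 kb beyond the end of the gene. It was almost as near to Gm2137 (27.2 kb) and lay inside the non-coding gene Gm51765. The less accessible region of Col23a1 lay at chr11:51512767-51513423, inside the gene and 223 kb downstream of its start, and the nearest more accessible region was 2390 kb away. The other transmembrane genes Col25a1 and Col17a1 had none. Col25a1 is the longest of the 44 genes, at 419.5 kb, and its nearest more accessible region lay 333 kb away.

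None of the 6 genes of beaded-filament type VI collagen (Col6a1 to Col6a6), which surrounds cells in connective tissue and muscle, had a linked region. Their nearest more accessible regions lay 123 kb (Col6a3) to 1902 kb (Col6a4) away. A count of 0 over their 0.777 Mb of territory allows a rate of up to 4.75 per Mb (exact Poisson 95% interval), a range that covers the rates of all 4 classes above. Col15a1 and Col18a1, the genes of the multiplexins of basement membranes, Col7a1, the anchoring fibril collagen of skin, and Col26a1 and Col28a1 had none either. More accessible regions lay 58.0 kb from Col26a1 and 92.0 kb from Col28a1 but were linked to Myl10 and Umad1.

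**Figure D4:**
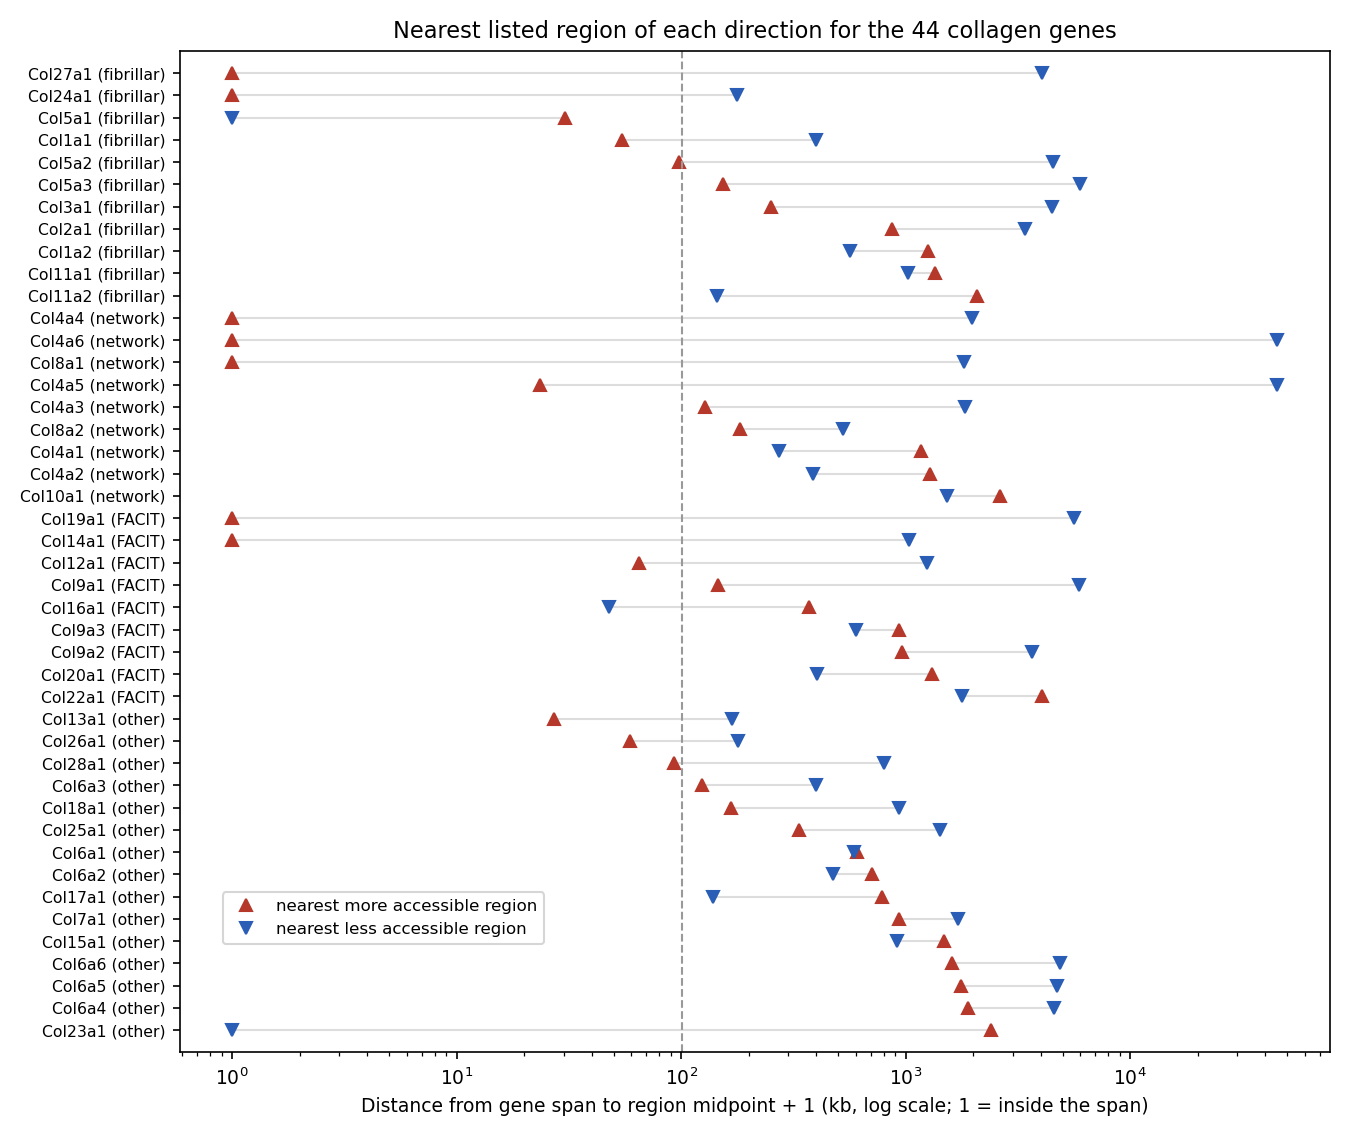
Distance (kb, plus 1, log axis) from the span of each of the 44 collagen genes to the midpoint of the nearest more accessible (red) and less accessible region (blue); 1 stands for a region inside the gene, and the dashed line for 100 kb. More accessible regions lie inside 7 genes and less accessible regions inside 2, Col5a1 and Col23a1.

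The median width of the 16 more accessible regions was 569.5 bp (200 to 801 bp), against 572 bp over the full list. None lay within 1 kb of a gene end, where 1.08% of the full list did. The median distance to the nearer end of the linked gene was 44.1 kb (11.2 to 139.6 kb), and the same median over all links of more accessible regions to protein-coding genes was 36.9 kb. Of the 16, 11 (68.8%) lay inside the gene, against 58.7% of all linked more accessible regions and 45.4% of the full list, which also holds regions too far from any gene to be linked. Gene spans made up 5.44 of the 7.61 Mb of collagen territory, a larger part than the 1051 of 1928 Mb over all protein-coding genes. The shares inside were not adjusted for this. The 8 that lay inside a gene with a matched start were spread over its length, from 6.91% (Col4a6) to 91.9% (Col4a4) of the way from the start.

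Over a wider window, 24 of the 44 collagen genes had a more accessible region within 500 kb of the span, and the median count was 1. That leaves 45.5% with none, close to the 50.1% of all protein-coding genes. Counts of 6 or more were found at 5 of the 44 collagen genes and at 1.84% of all protein-coding genes. Col4a4, Col8a1 and Col3a1 had 7 each, and Col5a2 and Col12a1 had 6 each. Col3a1 and Col5a2 are 24.6 kb apart and share most of that window, so the 5 genes stand for 4 places. The median distance to the nearest more accessible region was 292 kb for the collagen genes and 492 kb for all protein-coding genes, and to the nearest less accessible region 1028 and 1341 kb. Neither the window counts nor these distances were matched for gene length, and the window includes the span, which is longer in collagen genes.

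Genes that make, process, bind or degrade collagen were described in the same way, from a list of 65. The list was chosen with earlier results of these data known, so its shares and its rate are a description only. They were not matched for gene length. More accessible regions were linked to 11 of them (16.9%) and less accessible regions to 1 (1.54%), against 7.27% and 1.99% of all protein-coding genes. The rate was 3.49 more accessible regions per Mb of territory (20 regions, 95% interval 2.13 to 5.39), against 1.19 over all protein-coding genes. The interval covers counting error only. It allows neither for the choice of the list nor for several regions at 1 gene. Of the 20 regions, 7 were linked to Itga11, an integrin subunit that binds fibrillar collagen. Itga11 was the 1 collagen receptor gene of 11 with a linked region. Of 19 genes of synthesis enzymes and chaperones, Plod2, a lysyl hydroxylase that sets the type of collagen cross-link, and P3h2, a prolyl 3-hydroxylase, had 1 each. Of 8 procollagen-processing genes, Adamts3, which removes the amino-terminal propeptide, had 3 and Tll1, a relative of the carboxy-terminal propeptidase, had 1. Of 15 genes of fibril-binding proteins, Lum had 2 and Dcn, Kera, Fmod and Fn1 had 1 each. Lum, Dcn, Kera and Fmod encode small leucine-rich proteoglycans that regulate fibril growth, and the first 3 are neighbours on chromosome 10. None of the 6 cross-linking genes, Lox, Loxl1 to Loxl4 and Tgm2, had a linked region. All 6 span under 100 kb, where 4.22% of all protein-coding genes had a more and 1.44% a less accessible region. Of 6 collagenase and gelatinase genes, Mmp13 had 1 more accessible and Mmp14 1 less accessible region. Acvr1 itself had no linked region.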

How the data were processed

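The 3 wild-type and 3 FOP mutant ATAC-seq libraries of embryonic fibroblasts were sequenced as 150 bp pairs, per the labels' protocols; the series' design text calls them biological replicates. The deposited files are 2 lists of region positions in base pairs (chromosome, start, end), with no other value. Per the submitters' processing notes, the authors used Trimmomatic and Bowtie2, SAMtools and bedtools, MACS2, featureCounts and DESeq2, with the builds mm10 and GRCm38. Not given in the sources used here are cutoffs, versions, the handling of duplicates and of the transposase offset, and whether libraries were pooled for peak calling. Direction was taken from the name of each list. Peaks that did not pass the authors' test are not analysed here, so rates are relative to sequence and not to open chromatin.

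Starts were converted to count from 1. Gene spans came from the RefSeq table of GRCm38.p6. It gives no exons, so exonic and intronic positions were not separated. Strand and annotated starts came from the RefSeq promoter table. Regions were linked by midpoint as described, and a gene's territory is its span plus the positions outside all spans nearest to it within 100 kb. Intervals were exact Poisson or Clopper-Pearson at 95%. Linking and territories were tested on simulated positions with known answers. Alternatives were limits of 10 kb and none, the nearest gene end, any overlap, merging within 10 kb, and all annotated genes. Every collagen or pathway gene with a linked region was named. The members, classes and pathway list were chosen with earlier results of these data known. Python 3.11.15, pandas 2.3.3 and scipy 1.17.1 were used.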

Additional observations from a re-analysis of the deposited data

How the results depend on the processing

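Counts of regions and of genes were recomputed under 6 other ways of linking. With a limit of 10 kb, collagen genes with a more accessible region fell from 11 to 7, the regions of fibrillar genes from 4 to 2 and those of the other classes from 1 to 0. Linking to all annotated genes, non-coding ones included, also gave 7, 2 and 0. Genes with a more accessible region then fell from 7.27% to 5.455% of all protein-coding genes and from 25.0% to 15.9% of collagen genes. Under this setting and the 10 kb limit alike, the regions lost are the 5 outside a gene, at Col5a1, Col5a2, Col12a1 and Col13a1. With no limit, fibrillar genes had 7 regions, the additional ones being those beside Col5a2. The other counts stayed within 1.5 times the reported value under each alternative; the total of more accessible regions ranged from 11 to 22, and the less accessible total was 2 under all. No paired analysis was possible because the lists hold no value per library, and for the same reason no replicate could be left out. With so few regions per class, the depth and the authors' threshold, which are not known, limit any reading of a gene without a listed region.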
